A study of Mus musculus with 18 samples.

Results

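Granulocyte progenitors were taken from the Lin- Kit+ (LK) bone marrow cells of 6 female C57BL/6 mice as the cells that carried RNA of both Cebpe and Ms4a3 together with Elane. A cell was a member when it held at least 1 unique molecular identifier (UMI, a tag that marks 1 captured RNA molecule) of Cebpe, at least 1 of Ms4a3 and at least 5 of Elane. It also had to hold at most 5 UMIs of S100a8 and S100a9 together, 0 of Csf1r, 0 of Klf1 and fewer than 100 of Igkc. Of 8436 LK cells, 952 (11.3%) met these limits. They came from 3 aged mice of 72 weeks (489 members of 4288 cells) and 3 young mice of 8 weeks (463 members of 4148 cells). Each mouse gave 1 droplet library of 3′ cDNA, which was read on an Illumina NextSeq 500, and the animals differed in age alone as far as their labels tell. The study asked how the RNA of single marrow progenitors differs with age. Values of single mice run in the order of mice 2, 4 and 6 for the aged group and of mice 1, 3 and 5 for the young group.

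Neutrophils arise in the marrow from progenitors that first fill azurophil (primary) granules with serine proteases and myeloperoxidase, and only later make the proteins of the specific (secondary) granules. C/EBPα, PU.1 and GFI1 act at the entry to this path, and C/EBPε is needed for the step from the promyelocyte onwards and also for the eosinophil lineage. Ms4a3, a membrane protein gene, is transcribed in granulocyte and monocyte progenitors, and S100a8 and S100a9 encode the subunits of calprotectin, an abundant protein of more mature neutrophils. Csf1r is the receptor gene of the monocyte lineage, Klf1 encodes a factor of erythroid cells and Igkc is an immunoglobulin light chain gene.

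Because the limits were set on measured RNA, the levels of these 8 genes describe the choice and are not findings. The median member held 79 UMIs of Elane (quartiles 32 and 149, highest 417), 11 of Ms4a3 (quartiles 6 and 19, highest 53) and 2 of Cebpe (quartiles 1 and 5, highest 24). Cebpe was thus the scarcest of the required RNAs, and 308 members had a single Cebpe UMI. Another 744 cells met every other limit with 0 Cebpe UMIs. For Ms4a3, 36 members stood at 1 UMI and 19 cells were left out at 0. For Elane, 12 members stood at 5 UMIs and 12 cells were left out at 4. For S100a8 and S100a9 together, 743 members had 0 UMIs and 7 had the permitted 5, while 8 cells with 6 UMIs fell just outside. A single Csf1r UMI left out 62 cells, a single Klf1 UMI left out 72 cells and the Igkc limit left out 3, the highest Igkc count of a member being 48.

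The label was checked with genes that the limits did not use, beside 254 LK cells with at least 5 Klf1 UMIs, an erythroid population that should lack granule genes. The median member held 71 UMIs of Mpo, 40 of Ctsg and 29 of Prtn3, against 2, 1 and 1 in the Klf1 cells, although the Klf1 cells were the deeper ones (median 16831 UMIs per cell, against 4331 to 11126 in the members of single mice). Mpo encodes myeloperoxidase, and Ctsg and Prtn3 encode the serine proteases cathepsin G and proteinase 3. Every member held at least 5 Mpo UMIs and 1 member held 0 of Prtn3. Gfi1 was seen in 31.6% of members and in 0.394% of Klf1 cells, and Cebpa in 46.5% and 5.51%. The receptor gene of granulocyte colony stimulating factor, Csf3r, was seen in 27.3% of members and 1.18% of Klf1 cells. Cd34, a surface marker of early progenitors, was seen in 72.4% of members and in 10.2% of Klf1 cells. Of the genes that the rule limits, S100a9 was seen in 1.37% of members and 1.57% of Klf1 cells and Igkc in 65.7% and 76.8%, so that neither was seen more often in members, and they carry no weight for the label. Mpo, Ctsg, Prtn3, Gfi1, Cebpa and Csf3r fit the label of granulocyte progenitor, with the exception of a small group that carried eosinophil or basophil RNA and is described further on. Set beside erythroid cells alone, the check cannot tell granulocyte from monocyte progenitors. A monocyte-lineage gate is compared below.

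Elane, Prtn3, Ctsg and Mpo were the highest protease and peroxidase RNAs of the members, and the stretch around each start is shown because their RNA varied together from cell to cell. Elane and Prtn3 are neighbours on chromosome 10, where Prss57 (79781474-79794684) and the complement factor D gene Cfd (79890853-79892655) flank Prtn3 (79879667-79883174) and Elane (79886312-79888216). Mpo (87793784-87804412) is on chromosome 11 near Epx (87863997-87875536), the peroxidase gene of eosinophils, and Ctsg (56099885-56102574) is on chromosome 14 near Mcpt8 (56082163-56085499), a protease gene of basophils. The sequences are RefSeq's on GRCm38.p6, 250 bases before to 50 after the annotated start, 5′ to 3′ on the strand of the gene. Capitals mark GAGGAAG, the letters of a PU.1 and ETS factor motif.
Elane, chr10:79886062-79886361, plus strand: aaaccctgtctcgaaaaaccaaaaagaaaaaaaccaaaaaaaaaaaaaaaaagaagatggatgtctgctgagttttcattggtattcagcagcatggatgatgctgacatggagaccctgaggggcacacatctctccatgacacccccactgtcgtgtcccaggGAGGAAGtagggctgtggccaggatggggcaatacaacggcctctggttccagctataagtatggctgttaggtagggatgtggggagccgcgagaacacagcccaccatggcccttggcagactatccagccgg
Prtn3, chr10:79879417-79879716, plus strand: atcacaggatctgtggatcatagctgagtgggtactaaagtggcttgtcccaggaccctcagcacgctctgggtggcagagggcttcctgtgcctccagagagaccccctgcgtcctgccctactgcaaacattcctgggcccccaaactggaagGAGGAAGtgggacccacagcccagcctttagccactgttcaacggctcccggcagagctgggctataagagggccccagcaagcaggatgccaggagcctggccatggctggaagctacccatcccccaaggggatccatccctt
Mpo, chr11:87793534-87793833, plus strand: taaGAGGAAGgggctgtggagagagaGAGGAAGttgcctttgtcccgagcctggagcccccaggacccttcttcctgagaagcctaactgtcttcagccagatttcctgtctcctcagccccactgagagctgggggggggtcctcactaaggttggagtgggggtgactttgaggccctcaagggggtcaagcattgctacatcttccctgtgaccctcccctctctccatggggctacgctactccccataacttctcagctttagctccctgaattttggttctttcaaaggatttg
Ctsg, chr14:56102525-56102824, minus strand: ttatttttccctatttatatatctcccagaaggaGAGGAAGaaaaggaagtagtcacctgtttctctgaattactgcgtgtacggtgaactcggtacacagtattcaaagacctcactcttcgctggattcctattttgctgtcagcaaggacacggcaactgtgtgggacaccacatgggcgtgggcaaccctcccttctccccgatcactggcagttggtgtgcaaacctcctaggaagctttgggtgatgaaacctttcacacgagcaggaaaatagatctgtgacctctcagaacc

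GAGGAAG stood on the gene's own strand at position -85 of Elane, -95 of Prtn3, -247 and -224 of Mpo and -216 of Ctsg, counted from the start. Searched on both strands, these letters were in 13.6% of 32851 mouse promoter windows of the same length (15.4% of 27025 genes) and in 8 of 14 genes of the azurophil granule list that had a window. The other 4 of those 8 were Ctsc, Gusb, Man2b1 and Bpi. The Myb motif AACNGNC was in 32.8% of windows (36.0% of genes) and in 7 of the 14, among them Elane at -50 and, on the opposite strand, at -22, Mpo at -165 and Ctsg at -38, also on the opposite strand. The C/EBP motif TTNNGNAA was in 40.7% of windows (44.1% of genes), in 4 of the 14 (Srgn, Cst7, Lyz2 and Man2b1), and in none of the stretches printed. No match overlapped another in the stretches printed, and a match describes the letters of this window only.

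Depth set how firmly single mice could be read. A level is given as CPM, the UMIs of a gene per 1000000 UMIs of the members of that mouse, with no further scaling. Summed UMIs of the members were 1953962, 2482447 and 257297 in aged mice and 2279984, 866707 and 922987 in young mice. Aged mouse 6 was the shallowest by cells (52 members), by UMIs per member (median 4331) and by genes per member (median 1683.5), while the other mice had medians of 7325 to 11126 UMIs and 2041 to 2824 genes. All LK cells of a library summed to 3628043 to 17585424 UMIs. Of the cell barcodes, 42 occurred in 2 libraries (84 cells, 10 of them members), and none of them was a member in both. Aged mouse 2 and young mouse 1 stood apart from mice 3 to 6 in immediate early genes, which respond to handling: Fos stood at 51.2, 415 and 206 CPM in aged mice and at 98.2, 367 and 250 CPM in young mice. The part of this difference in the results was not tested beyond a fit with a term for mice 1 and 2.

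Primary granule genes were among the highest RNAs of the members, although the 17 azurophil granule genes together held less than ribosomal protein genes (32070 and 342148 CPM on average). Elane, neutrophil elastase, stood at 12232, 9523 and 8504 CPM in aged mice and at 13415, 6639 and 9470 CPM in young mice. Mpo stood at 10647, 7140 and 8519 CPM in aged mice and at 9763, 5041 and 7752 CPM in young mice. The lowest value of both was that of young mouse 3, and the ages overlapped. Ctsg stood at 5900, 5278 and 4489 CPM in aged mice and at 5086, 3236 and 4367 CPM in young mice. Prtn3 stood at 4135, 3217 and 3028 CPM in aged mice and at 3788, 2722 and 3634 CPM in young mice. These proteases again had their lowest level in young mouse 3 and overlapped between the ages.

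As shares of all UMIs, averaged over the 6 mice, Elane took 0.996%, Mpo 0.814%, Ctsg 0.473% and Prtn3 0.342%. Among genes that encode neither ribosomal proteins nor mitochondrial RNAs, the others above Prtn3 were Malat1 (0.768%), Plac8 (0.657%), Eef1a1 (0.598%), Ptma (0.528%), Ppia (0.484%) and Tmsb4x (0.449%). Rps3a1 (0.527%) and Fau (0.384%), which encode ribosomal proteins under other names, also stood above it. In Klf1 cells the same granule genes averaged 167 CPM (Elane), 210 CPM (Mpo), 104 CPM (Ctsg) and 95.5 CPM (Prtn3). Srgn, the serglycin core that packs proteases into granules, stood at 2614, 2120 and 2149 CPM in aged mice and at 2491, 2018 and 2561 CPM in young mice. Nkg7, a granule membrane protein gene, stood at 1563, 1258 and 1018 CPM in aged mice and at 1638, 931 and 1255 CPM in young mice. Prss57, a further granule protease, was lower at 384, 287 and 268 CPM in aged mice and 372, 212 and 303 CPM in young mice. Srgn, Nkg7 and Prss57 overlapped between the ages too, with young mouse 3 lowest in each. In Klf1 cells the 17 azurophil granule genes summed to 1472 CPM.

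**Figure D1:**
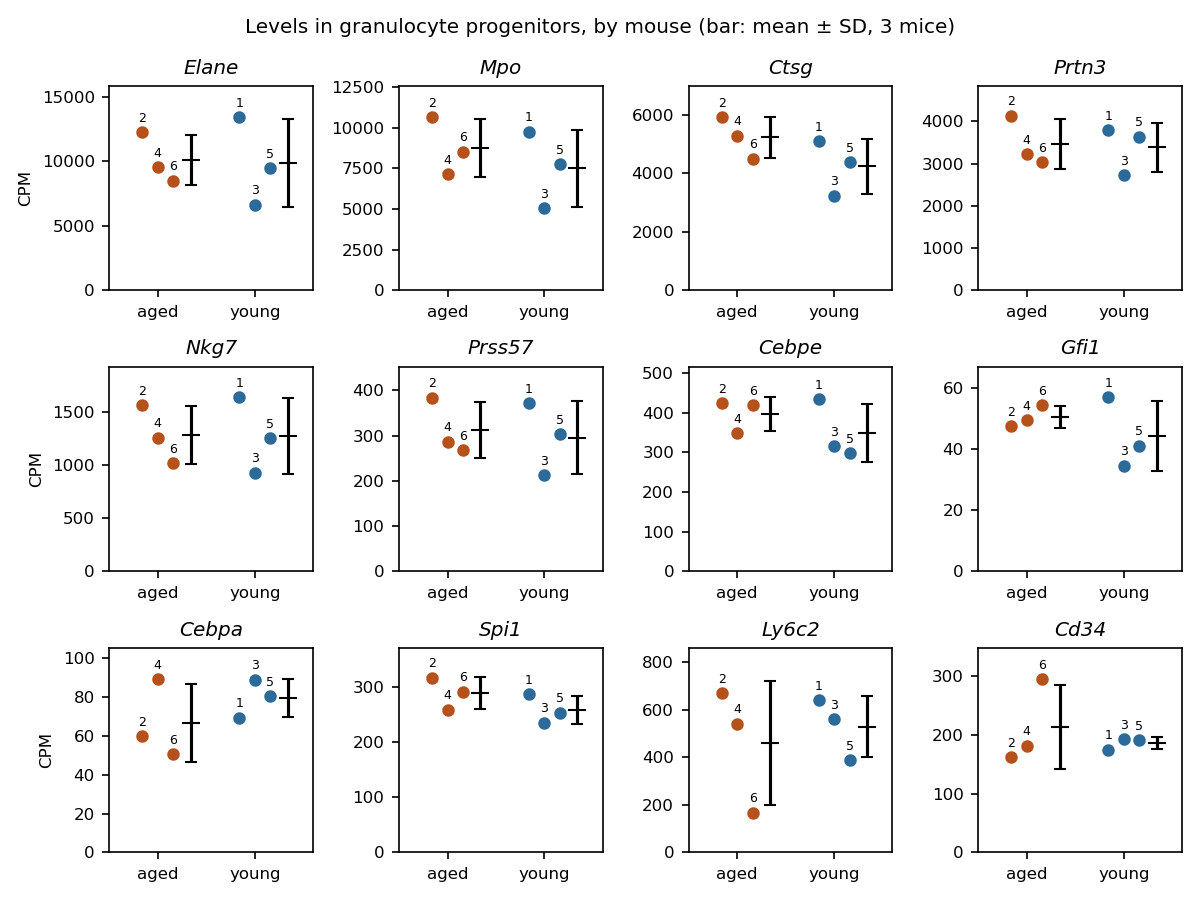
CPM of 12 genes in the granulocyte progenitors of each mouse, aged on the left and young on the right of each panel. Numbered points are mice and the bar is the mean with its SD (n = 3 each). Elane lies between 8504 and 12232 CPM in aged mice and between 6639 and 13415 CPM in young mice, and the ages overlap in each panel.

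The granule genes also varied together from cell to cell inside each mouse. Between the Elane and Mpo shares of a cell's UMIs, Spearman's rho was 0.61 to 0.79 in the 6 mice (52 to 237 cells each). It was 0.59 to 0.77 for Elane and Ctsg, 0.46 to 0.74 for Elane and Prtn3 and 0.55 to 0.66 for Elane and Ms4a3. The rho to Elane was -0.01 to 0.26 for Cebpe and -0.32 to -0.07 for Cd34. Both RNAs were scarce, with medians of 2 and 1 UMIs per member, and the rule left out cells without Cebpe. Their rho is therefore less firm than that of the granule genes. The cells of a mouse share 1 library and the shares share a denominator, so these values are a description.

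Genes of the secretory machinery were read next. Calr, the chaperone calreticulin, stood at 2220, 1842 and 2678 CPM in aged mice and at 1993, 1690 and 2584 CPM in young mice. Sec61b, a subunit of the channel that takes proteins into the endoplasmic reticulum (ER), stood at 1451, 1583 and 1259 CPM in aged mice and at 1564, 1613 and 1527 CPM in young mice. Ssr4, of the translocon-associated complex, ran from 849 to 902 CPM in aged mice and from 856 to 932 CPM in young mice. Calr was highest in aged mouse 6 and young mouse 5, and the ages overlapped in all 3 genes. The 31 ER chaperone and translocation genes summed to 11972 CPM in members on average. They summed to 8762 CPM in Csf1r+ Irf8+ cells and 6409 CPM in Flt3+ progenitors, both described below. Alas1, the first enzyme of haem synthesis, on which myeloperoxidase depends for its haem group, stood at 309, 230 and 163 CPM in aged mice and at 274, 112 and 245 CPM in young mice. Alas1 was lowest in young mouse 3, and the ages overlapped.

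Among transcription factors of the lineage, Cebpe, whose level the rule set in part, stood at 424, 348 and 420 CPM in aged mice and at 434, 316 and 298 CPM in young mice. Myb, a factor of immature progenitors, stood at 288, 243 and 404 CPM in aged mice and at 283, 275 and 388 CPM in young mice. Spi1, which encodes PU.1, stood at 317, 259 and 291 CPM in aged mice and at 286, 235 and 254 CPM in young mice. Myb was highest in aged mouse 6 and young mouse 5, and all 3 factors overlapped between ages. Lmo4, a LIM domain cofactor gene, stood at 103, 118 and 210 CPM in aged mice and at 102, 111 and 114 CPM in young mice. Cebpa stood at 59.9, 89.0 and 50.5 CPM in aged mice and at 69.3, 88.8 and 80.2 CPM in young mice. Gfi1, a repressor that favours the neutrophil path, stood at 47.6, 49.5 and 54.4 CPM in aged mice and at 57.0, 34.6 and 41.2 CPM in young mice. Lmo4 stood out in aged mouse 6 alone, and Irf8, the factor that favours monocytes, stood at 27.2 to 70.1 CPM in aged mice and 30.3 to 49.6 CPM in young mice.

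Of the surface genes, Cd63, a granule and endosome tetraspanin, was the highest at 1405, 1065 and 1201 CPM in aged mice and 1407, 775 and 1007 CPM in young mice. Ly6c2, which encodes the Ly6C antigen, stood at 669, 542 and 167 CPM in aged mice and at 641, 561 and 388 CPM in young mice. The inhibitory lectin receptor gene Clec12a stood at 408, 333 and 455 CPM in aged mice and at 447, 218 and 378 CPM in young mice. Ly6c2 varied most, with aged mouse 6 lowest, and the ages overlapped for all 3. Fcgr3, Ifngr1 and Cd24a, which encode an Fc receptor, an interferon gamma receptor chain and a small adhesion protein, averaged 264, 262 and 251 CPM over the 6 mice. Cd34 stood at 162, 182 and 295 CPM in aged mice and at 175, 193 and 192 CPM in young mice. Csf3r stood at 44.0, 32.2 and 70.0 CPM in aged mice and at 35.1, 31.2 and 33.6 CPM in young mice. Kit, the receptor gene that LK sorting uses at the protein level, was of the same order, at 45, 33 and 62.2 CPM in aged mice and 43.9, 36.9 and 36.8 CPM in young mice. Cd34, Csf3r and Kit were all highest in aged mouse 6.

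Genes of specific granules and later neutrophil steps were partly on and partly at or near 0. Hp, haptoglobin, stood at 236, 167 and 233 CPM in aged mice and at 228, 158 and 202 CPM in young mice. Pglyrp1, a peptidoglycan recognition protein, stood at 411, 226 and 198 CPM in aged mice and at 377, 198 and 209 CPM in young mice. Cyba, a subunit of the NADPH oxidase, stood at 418, 340 and 342 CPM in aged mice and at 482, 294 and 345 CPM in young mice. Aged mouse 2 and young mouse 1 were highest for Pglyrp1 and Cyba. Wfdc21, a small secreted protein gene, stood at 49.1, 21.3 and 3.89 CPM in aged mice and at 61.4, 27.7 and 13 CPM in young mice. Ltf, the lactoferrin gene of the specific granule, was at 0 UMIs in every mouse, and Camp and Ngp averaged 0.552 and 0.609 CPM. Fcnb, ficolin B, stood at 4.09, 3.63 and 0 CPM in aged mice and at 14.0, 0 and 2.17 CPM in young mice. The RNA of S100a8, limited by the rule, was found in 21.3% of members, against 9.45% of Klf1 cells, at 55.8, 37.5 and 3.89 CPM in aged mice and 40.8, 35.8 and 20.6 CPM in young mice.

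To show how members differed among themselves, those of each mouse were cut into tertiles by the share of UMIs from Mpo, Prtn3 and Ctsg, which gave 319, 317 and 316 cells in the lowest, middle and highest tertile. The cut was made after values were seen, so the differences are given without a test. Median depth was 9065, 10174 and 9298 UMIs per cell. Of 1450 genes with at least 100 CPM in the lowest or highest tertile, 241 were higher and 158 lower in the highest tertile in all 6 mice. The genes named here were picked from these after their values were seen. Elane averaged 4492, 9785 and 17659 CPM from the lowest to the highest tertile, and Prss57 174, 288 and 504 CPM. Ly6c2 averaged 130, 490 and 915 CPM, though in aged mouse 6 the lowest and highest tertile held only 117 and 180 CPM. Trem3, an activating receptor of granulocytes, averaged 42.7, 105 and 179 CPM. Clec12a (182, 354 and 681 CPM) and the leukotriene B4 receptor gene Ltb4r1 (43.9, 84.5 and 179 CPM) had the same order of means, as did Ifngr1 (139, 271 and 418 CPM).

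The granule-rich cells were also the ones with more secretory RNA. Hspa5, the ER chaperone BiP, averaged 426, 672 and 1025 CPM from the lowest to the highest tertile, and the 31 ER genes summed to 9705, 12347 and 15043 CPM. Alas1 averaged 111, 242 and 344 CPM, and the 8 haem enzymes summed to 351, 479 and 574 CPM. Pglyrp1 averaged 116, 253 and 470 CPM and Hp 93.1, 219 and 339 CPM. Gstm1, a glutathione transferase, averaged 258, 525 and 841 CPM. The share of members, pooled over mice, with a UMI of S100a8 or S100a9 was 7.84% in the lowest tertile, 15.5% in the middle one and 42.7% in the highest. Over single mice it ran from 0% to 20.8%, from 0% to 28.6% and from 5.88% to 58.9%. The rule held these genes to 5 UMIs, so the shares describe the choice in part and are not a finding.

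Other genes ran the opposite way. Ifitm1, an interferon-induced membrane protein of immature progenitors, averaged 442, 189 and 106 CPM from the lowest to the highest tertile and Lmo4 218, 71.7 and 72.1 CPM. Top2a, the topoisomerase of dividing cells, averaged 118, 94.3 and 49.8 CPM, and Pclaf, a partner of the replication clamp, 265, 177 and 93.8 CPM. The whole list of 22 mitosis genes summed to 1690, 1377 and 1563 CPM, with the middle tertile lowest, and the 20 replication genes to 2739, 2612 and 2472 CPM. The actin-binding Tmsb10 averaged 1073, 858 and 605 CPM, and the tubulin gene Tuba1b 1047, 800 and 581 CPM. Cebpa averaged 84.0, 77.7 and 52.4 CPM and was lower in the highest tertile in all 6 mice, while Gfi1 averaged 31.8, 48.6 and 60.9 CPM and was higher in 5 of 6. Myb stayed at 312, 313 and 314 CPM. Ribosomal protein genes summed to 367854, 342389 and 301416 CPM. Genes of stem and multipotent cells summed to 60.1, 47.3 and 26.6 CPM.

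**Figure D2:**
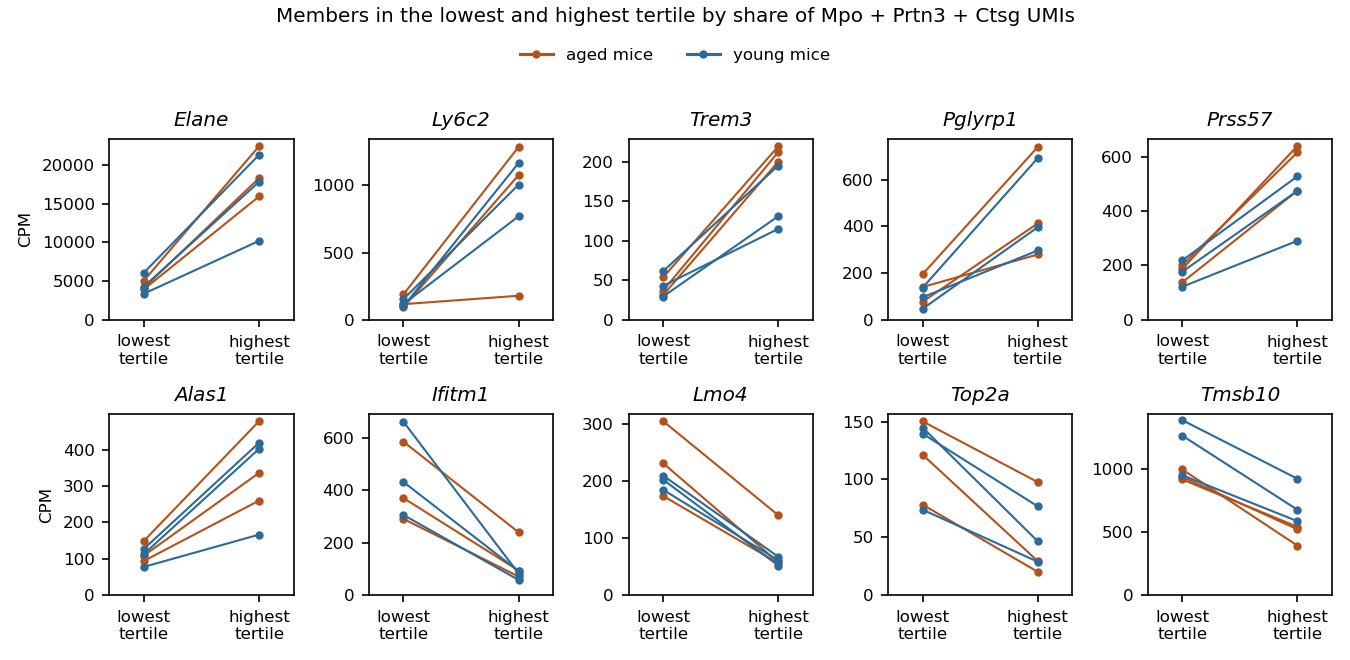
CPM of 10 genes in the lowest and the highest tertile of the granulocyte progenitors of each mouse, by the share of Mpo, Prtn3 and Ctsg UMIs. Each line is a mouse. Elane averages 4492 CPM in the lowest and 17659 CPM in the highest tertile, while Ifitm1 averages 442 and 106 CPM.

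The steepest differences of this kind came from a small set of cells. Prg2, the major basic protein of eosinophil granules, averaged 2483 CPM in the lowest tertile and 36.9 CPM in the highest. Of the 952 members, 53 held at least 20 UMIs of Prg2, Epx and Prg3 together, and they carried 95.2% of all members' UMIs of these genes. Their numbers were 10, 10 and 3 in aged mice and 20, 8 and 2 in young mice, or 4.63%, 4.52% and 5.77% of the aged and 8.44%, 6.61% and 1.90% of the young mice's members. The shares of the ages overlapped, young mouse 1 being highest and young mouse 5 lowest. Over these 53 pooled cells Prg2 stood at 22327 CPM, Prg3 at 2855 CPM and Epx at 641 CPM. Their median depth was 7564 UMIs per cell, within the range of the medians of the 6 mice, and no doublet caller was run.

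Cells with this much eosinophil RNA differed from the rest in genes of the rule and in others. Cebpe stood at 1038 CPM in them and at 341 CPM in the 867 members under 20 UMIs of both the eosinophil genes and the basophil genes taken next. Elane stood at 5084 CPM against 11350 CPM, Prtn3 at 1309 CPM against 3739 CPM, and Mpo at 6529 CPM against 8693 CPM. Ly6c2 stood at 40.1 CPM against 619 CPM and Csf3r at 11.8 CPM against 38.7 CPM. Gata1, a factor that eosinophils share with erythroid cells, stood at 70.7 CPM against 8.99 CPM, and Cd63 at 3400 CPM against 1051 CPM. These cells also held basophil genes, with Mcpt8 at 969 CPM against 116 CPM and Cpa3 at 946 CPM against 192 CPM. The 867 were chosen in part for few UMIs of these 2 genes. Of the eosinophil markers, Ccr3 was at 0 UMIs in all members, and Il5ra stood at only 2.36 CPM in the cells rich in eosinophil RNA.

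A second, overlapping set of 45 members held at least 20 UMIs of the basophil or mast cell genes Mcpt8, Prss34 and Cpa3. It numbered 14, 13 and 1 in aged mice and 10, 1 and 6 in young mice. Of the 45, 13 also belonged to the 53 cells rich in eosinophil RNA. The 45 cells held 46.5% of the members' UMIs of these 3 genes. Their pooled levels were 2423 CPM of Mcpt8, 2202 CPM of Prss34, 1535 CPM of Cpa3 and 272 CPM of Fcer1a, a chain of the IgE receptor. Elane stood at 4866 CPM, Ly6c2 at 64.2 CPM and the eosinophil gene Prg2 at 7033 CPM in them. With both sets left out, a choice made after seeing the data, Prg2 averaged 28.9 CPM in the lowest and 23 CPM in the highest tertile, and Mcpt8 131 and 94.0 CPM. Ifitm1 (375 and 106 CPM) and Lmo4 (184 and 71.8 CPM) remained lower in the highest tertile in all 6 mice without them.

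**Figure D3:**
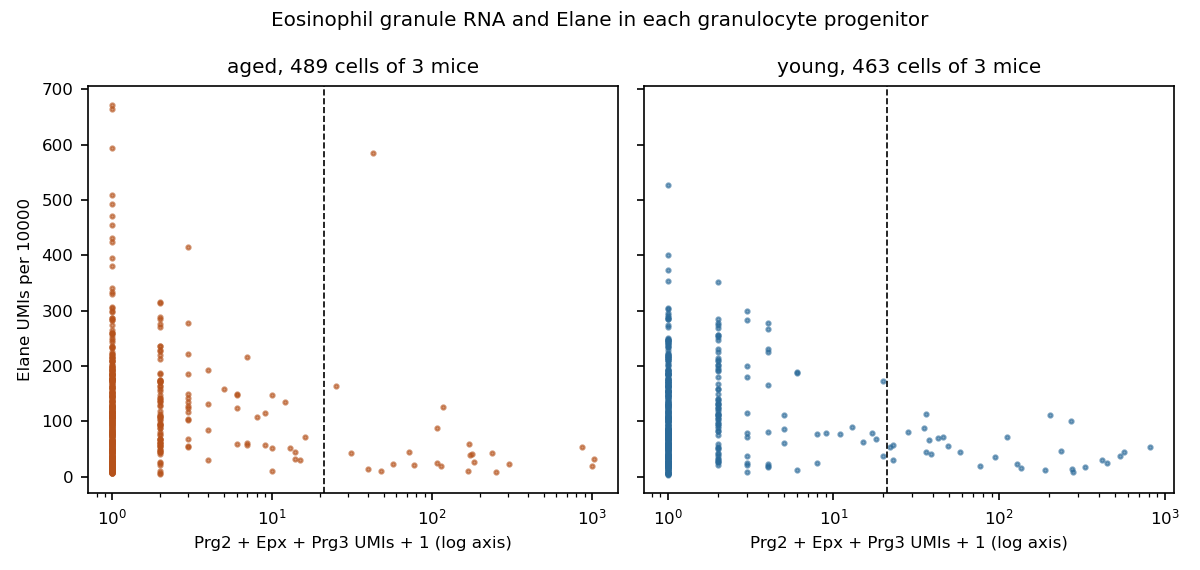
Each point is 1 granulocyte progenitor, with its summed Prg2, Epx and Prg3 UMIs plus 1 on a log axis and its Elane UMIs per 10000, for 489 cells of aged mice on the left and 463 of young mice on the right. The dashed line marks 20 UMIs, and 53 cells lie at or above it.

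The members were set beside 3 other gates of the same libraries, as a description without a test since their own limits separate them. Cells that met the same limits but held at least 6 UMIs of S100a8 and S100a9 numbered 50, 41 and 0 in aged mice and 30, 6 and 3 in young mice. With levels taken from mice 2, 4 and 1, Elane averaged 11723 CPM in members and 30018 CPM in these S100-high cells. Prtn3 averaged 3713 and 7816 CPM, Ctsg 5422 and 9749 CPM, and Gfi1 51.4 and 118 CPM. Ly6c2 averaged 617 CPM in members and 2786 CPM in S100-high cells, Fcnb 7.25 and 203 CPM, Wfdc21 44.0 and 625 CPM, and Hp 210 and 728 CPM. Ltf was at 0 in S100-high cells too. Cebpe averaged 402 CPM in members and 407 CPM in S100-high cells. Both gates require Cebpe at the same limit, so these values cannot show whether its level differs between them. Members held more Cd34 (173 and 23.1 CPM), Fabp5 (107 and 18.1 CPM) and Ifitm1 (241 and 49.5 CPM) than S100-high cells. Eosinophil and basophil genes had the largest ratios on that side, among genes of at least 100 CPM without overlap. They were Prg2 (1334 and 22.4 CPM), Prg3 (193 and 9.10 CPM) and Cpa3 (280 and 14.1 CPM). For Elane, Ly6c2, Hp, Cd34, Fabp5 and Ifitm1 the S100-high level lay beyond the mean of the highest tertile, on the side away from the lowest.

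Against 495 cells with Csf1r and Irf8 UMIs (and 0 of Klf1), a monocyte-lineage gate, members averaged 1277 CPM of Nkg7 where those cells had 289 CPM, 270 and 27.3 CPM of Pglyrp1, 1143 and 128 CPM of Cd63, and 182 and 21.6 CPM of Hdc, the histamine-forming enzyme. Prtn3 differed less, at 3420 CPM in members and 2735 CPM in the monocyte-lineage gate, and PU.1's gene Spi1 overlapped, at 274 and 247 CPM. The coagulation factor gene F13a1 averaged 21.2 CPM in members and 301 CPM in the monocyte-lineage gate, and Ly86 averaged 8.03 and 112 CPM.

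Against 802 Flt3+ progenitors with 0 Cebpe and fewer than 5 Elane UMIs, members averaged 1415 CPM of Ms4a3 where those cells had 49.2 CPM, 264 and 10.4 CPM of Fcgr3, and 495 and 50.4 CPM of Ly6c2. Dntt, the lymphoid terminal transferase, averaged 3.21 CPM in members and 263 CPM in Flt3+ cells, Cd34 200 and 444 CPM, and the endothelial and stem cell gene Egfl7 44.5 and 208 CPM. The mitosis genes summed to 1532 CPM in members and 2348 CPM in Flt3+ cells.

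**Figure D4:**
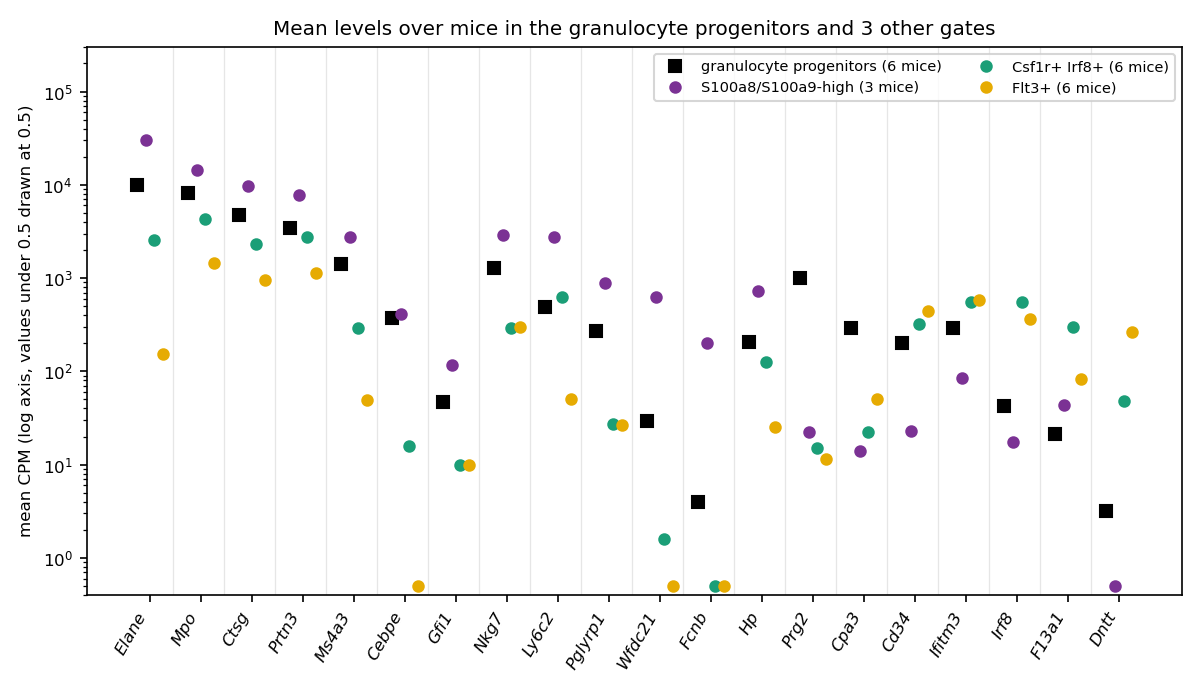
Mean CPM, on a log axis, of 20 genes in granulocyte progenitors (black squares, 6 mice), S100-high cells (3 mice), Csf1r+ Irf8+ cells (6 mice) and Flt3+ cells (6 mice), with values under 0.5 CPM drawn at 0.5. Elane averages 9964 CPM in granulocyte progenitors, 2571 CPM in Csf1r+ Irf8+ cells and 154 CPM in Flt3+ cells.

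How many LK cells were granulocyte progenitors did not separate the ages. The share of members was 12.8%, 11.5% and 7.64% in aged mice and 14.3%, 7.89% and 11% in young mice, that is 10.6% ± 2.69 in aged mice and 11.1% ± 3.20 in young mice (SD, n = 3 each). The difference, aged minus young, was -0.40 percentage points (two-sided exact permutation test over mice, p = 0.9, with 0.1 the smallest p that 3 against 3 mice allow). Without aged mouse 6 it was 1.10 points and without young mouse 1 it was 1.21 points. After each cell was thinned to 2000 UMIs it was 0.969 points (exact p = 0.7), with 515 members among 8286 cells. The step to S100-high cells was compared as the log2 ratio of S100-high cells to members, with 0.5 cells added to each number. It was -2.10, -2.42 and -6.71 in aged mice and -2.96, -4.22 and -4.91 in young mice, a difference of 0.29 (exact permutation p = 0.8). Aged mice held both the 2 highest ratios and the lowest, that of aged mouse 6 with 0 S100-high cells. Without aged mouse 2 the difference was -0.53, without aged mouse 4 it was -0.37, without aged mouse 6 it was 1.77 and without young mouse 5 it was -0.15. After each cell was thinned to 2000 UMIs the difference was 1.53 (exact permutation p = 0.2). Aged mouse 6 and young mice 3 and 5 then all had 0 S100-high cells, and young mouse 3 had the lowest ratio (-6.63).

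Between the ages, no gene's RNA level passed the test in these cells when the 6 mice were compared without a further term. UMIs were summed over the members of each mouse, and edgeR's quasi-likelihood test called 0 of 7735 genes (0%) at a Benjamini-Hochberg adjusted p under 0.05, the smallest adjusted p being 1.00. DESeq2 also called 0 (0%), with a smallest adjusted p of 0.754. At an unadjusted p under 0.05, edgeR gave 182 genes (2.35%), 112 with higher (1.45%) and 70 with lower values (0.905%) in aged mice, and DESeq2 gave 59 (0.763%). Calls came under 3 alternatives of edgeR, with 15 genes without a filter on low counts, 5 with a term for mice 1 and 2 (Igkc, Ighm, Jchain, Igha and Fcer1a, all higher in aged mice) and 1 without aged mouse 6. The rule limits Igkc, so its calls are not findings. The 3 aged mice lay above the 3 young mice in 455 genes (5.88%) and below them in 160 (2.07%). The median log2 difference over all genes tested was -0.00. In the fits below, log2 differences are aged over young after TMM scaling, whereas CPM are unscaled, so the sign of a small difference can differ between them.

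No granule gene was called between the ages. For Elane the log2 difference was -0.03 ± 0.25 (SE) and for Prtn3 -0.04 ± 0.19, with mean levels of 10086 ± 1927 CPM and 3460 ± 592 CPM in aged mice and 9841 ± 3403 CPM and 3381 ± 576 CPM in young mice (SD, n = 3 each). It was 0.16 ± 0.23 for Mpo, 0.24 ± 0.20 for Ctsg and 0.10 ± 0.17 for Cebpe. Elane and Cebpe are genes of the rule, so their differences describe the choice and are not findings. In the lists that follow, Elane is among the azurophil genes and Cebpe among the transcription factors. Of the 16 azurophil genes tested, 10 had positive and 6 negative differences, with a median of 0.07. The 7 specific granule and later genes tested, of 16 in the file, had 4 positive and 3 negative values and a median of 0.02. Without aged mouse 2 they had 1 positive and 6 negative values (median -0.18) and without young mouse 1 they had 6 and 1 (0.21), while the azurophil median was 0.21 without young mouse 1. The 19 transcription factors tested, of 26, had a median of -0.08 (7 positive, 12 negative). The 22 receptor and surface genes tested, of 27, had a median of 0.03 (14 positive, 8 negative), with Ly6c2 at -0.23 ± 0.34. The 31 ER genes had a median of -0.05 (14 positive, 17 negative) and the 8 haem enzymes -0.05 (3 positive, 5 negative). The 20 replication genes had a median of -0.06 (8 positive, 12 negative) and the 22 mitosis genes 0.04 (13 positive, 9 negative). In each of these lists edgeR called 0 genes, and the count at an unadjusted p under 0.05 was 0 except for the mitosis gene Ube2c, which had 59.4, 32.2 and 7.77 CPM in aged mice and 67.5, 49.6 and 66.1 CPM in young mice.

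Antigen presentation by MHC class I was among the lists with values mostly on 1 side, as were ribosomal protein genes (8 positive and 74 negative of 82 tested, median -0.17) and immediate early genes (12 positive of 13 tested, but 1 positive of 12 without aged mouse 4). H2-D1, a classical class I heavy chain, stood at 921, 895 and 1112 CPM in aged mice and at 763, 426 and 809 CPM in young mice. The lowest aged value was above the highest young value, and the log2 difference was 0.48 ± 0.19 (SE; edgeR unadjusted p = 0.0254, adjusted p = 1.00). In Klf1 cells H2-D1 stood at 705, 527 and 618 CPM in aged mice and at 608, 347 and 550 CPM in young mice, with overlap. Over all LK cells it stood at 1100, 945 and 979 CPM in aged mice and at 862, 475 and 850 CPM in young mice, without overlap, so its order was not particular to the members. H2-Q7, a nonclassical heavy chain, stood at 97.8, 115 and 155 CPM in aged mice and at 85.5, 48.5 and 80.2 CPM in young mice, again without overlap (0.63 ± 0.21, edgeR unadjusted p = 0.00867, adjusted p = 1.00). H2-K1 stood at 655, 592 and 1154 CPM in aged mice and at 560, 448 and 599 CPM in young mice, with aged mouse 4 just under young mouse 5 (0.48 ± 0.21). B2m, the invariant light chain, stood at 2353, 1979 and 2616 CPM in aged mice and at 2277, 1690 and 2283 CPM in young mice and overlapped (0.08). Tap2, of the peptide transporter, stood at 86.5, 70.9 and 136 CPM in aged mice and at 43.9, 33.5 and 75.8 CPM in young mice, and its ages overlapped by 1 pair of mice (0.77 ± 0.26). The immunoproteasome gene Psmb8 was the only member with a negative difference (-0.06), at 675, 601 and 525 CPM in aged mice and 654, 545 and 599 CPM in young mice.

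Of the 11 class I genes, 10 had positive and 1 a negative difference, with a median of 0.29 beside -0.00 over all genes tested. edgeR called 0 of them, 4 were at an unadjusted p under 0.05 beside 1.45% of all genes on that side, and in 3 (H2-D1, H2-Q7 and Psmb9) the aged mice lay above the young ones, beside 5.88% of all genes. Their summed level was 5302, 4701 and 6250 CPM in aged mice and 4825, 3544 and 4888 CPM in young mice, so aged mouse 4 fell within the range of the young mice. Over the 17 settings of the fit, 9 to 10 class I genes had positive values (of 11 tested, or of 10 after thinning) and the median ran from 0.17 without aged mouse 6 to 0.52 without young mouse 5. Interferon-stimulated genes did not show the same side, with 4 positive and 5 negative of 9 tested, of 17, and a median of -0.02.

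**Figure D5:**
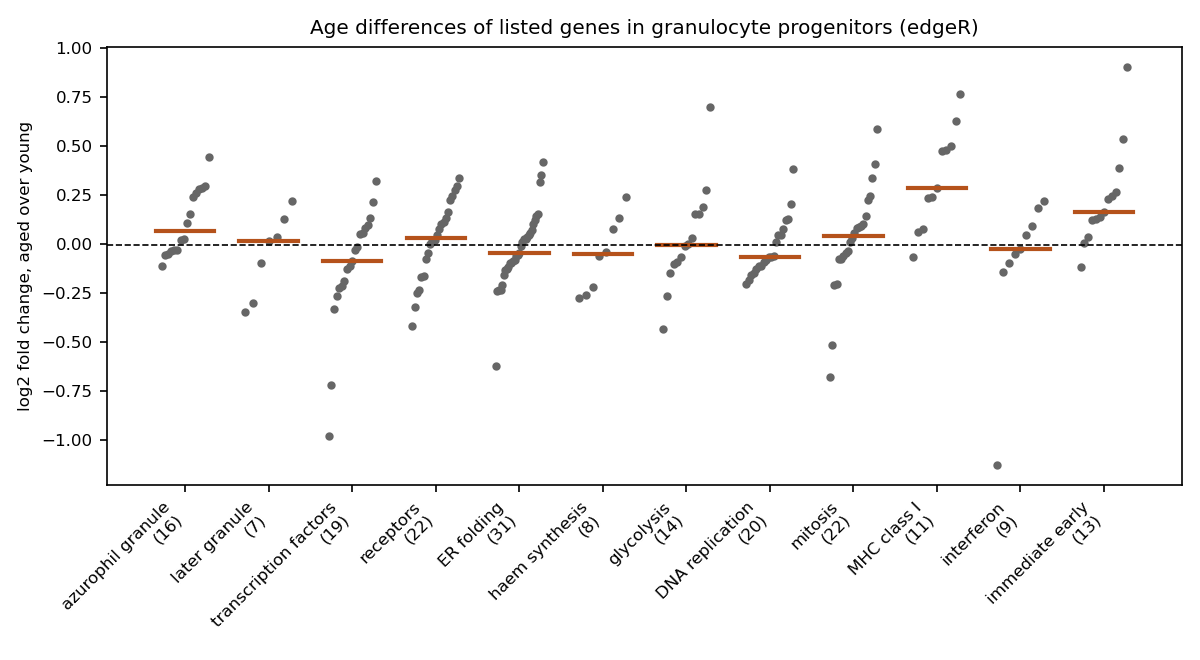
Log2 difference, aged over young, of each gene tested in 12 lists, with a line at the median of each list. The class I genes have a median of 0.29 and the azurophil granule genes a median of 0.07, and no gene passed the adjusted test.

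Among genes of at least 50 CPM whose ages did not overlap, those with the smallest unadjusted p are given as genes that did not pass. The strongest was Lgals1, which encodes the lectin galectin-1, at 725, 710 and 793 CPM in aged mice and 1268, 1055 and 1020 CPM in young mice. Its mean was 742 ± 44.3 CPM in aged mice and 1114 ± 134 CPM in young mice (SD, n = 3 each), with a log2 difference of -0.67 ± 0.16 (SE; edgeR unadjusted p = 0.000894, adjusted p = 1.00). Tmsb10, also lower in granule-rich members, stood at 744, 758 and 738 CPM in aged mice and at 989, 1139 and 821 CPM in young mice (-0.49 ± 0.18). Skp1a, a subunit of ubiquitin ligases, stood at 154, 153 and 117 CPM in aged mice and at 188, 204 and 179 CPM in young mice (-0.47). Acot7, an acyl-CoA thioesterase (-0.42), Mrpl51, of the mitochondrial ribosome (-0.36), Polr2k, an RNA polymerase subunit (-0.34), Gnb1 (-0.69) and Grcc10 (-0.48) completed that side.

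On the other side were Prpf4b and Scaf11, which act in splicing, at 67.0, 71.3 and 89.4 CPM in aged mice against 42.5, 46.2 and 54.2 CPM in young mice for Prpf4b (log2 difference 0.57) and at 86.5, 107 and 140 CPM against 70.6, 63.5 and 72.6 CPM for Scaf11 (0.55). Atrx, a chromatin remodeller, stood at 74.7, 81.0 and 155 CPM in aged mice and at 43.4, 54.2 and 67.2 CPM in young mice (0.72), with aged mouse 6 far above the others. Khk, ketohexokinase, stood at 105, 105 and 128 CPM in aged mice and at 89.9, 65.8 and 57.4 CPM in young mice (0.53). Trf, transferrin (0.57), Cd27, a receptor of the TNF receptor family (0.46), the class I gene H2-Q7 above and Gm13611 (0.58) were the rest. Each of these 16 genes had an adjusted p of 1.00 with edgeR.

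Of 11 genes that the study names for ageing, 9 were tested here, and since they were picked from these same samples their values are not independent evidence. edgeR called 0 of them. Of the 9 differences, 4 were positive and 5 negative, with a median of -0.31, and at an unadjusted p under 0.05 were 2 with higher values (Igkc and H2-D1) and 2 with lower values, among them Tmsb10. Igkc stood at 1831, 162 and 93.3 CPM in aged mice and at 175, 8.08 and 23.8 CPM in young mice (log2 difference 3.16 ± 0.96). With a term for mice 1 and 2 it passed edgeR's test (3.22, adjusted p = 8.2e-07). Since the rule limits Igkc, its level describes the choice and its test is not a finding. Its order over the mice was nearly that of Klf1 cells, which held 1362, 157 and 48.9 CPM in aged mice and 195, 7.49 and 3.46 CPM in young mice, and all LK cells together held 34588, 6186 and 802 CPM in aged mice and 4581, 7.10 and 20.6 CPM in young mice. The part of free RNA in these Igkc values was not tested.

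Plac8, a small cysteine-rich protein abundant in myeloid progenitors, stood at 6555, 6129 and 5200 CPM in aged mice and at 7329, 7204 and 7030 CPM in young mice, without overlap (-0.35, edgeR unadjusted p = 0.0961, adjusted p = 1.00). Rpl35, a ribosomal protein gene, stood at 4475, 2899 and 3280 CPM in aged mice and at 6349, 5761 and 2788 CPM in young mice (-0.59). Gpx1, glutathione peroxidase, stood at 3410, 2351 and 2149 CPM in aged mice and at 3656, 2995 and 2641 CPM in young mice (-0.31). Apoe stood at 292, 253 and 758 CPM in aged mice and at 371, 204 and 325 CPM in young mice, and its difference of 0.38 was -0.20 without aged mouse 6. Rpl35, Gpx1 and Apoe overlapped between the ages. Cd34, also on the list, had a difference of 0.05, and Sult1a1 and Nupr1 were too low to be tested.

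Markers of other cell types were followed for the same members. B or plasma cell genes summed to 2615, 281 and 187 CPM in aged mice and 305, 92.3 and 138 CPM in young mice, with 4 of 16 tested. Aged mouse 2 was far the highest, and the median log2 difference of 2.36 was 0.57 without it. Igkc, which the rule limits, is in this list and among the 4 tested. It held 1831, 162 and 93.3 CPM of the sums in aged mice and 175, 8.08 and 23.8 CPM in young mice. The sums and the median therefore describe the choice in part and are not findings. Ighm stood at 422, 62 and 35 CPM in aged mice and at 54.8, 28.8 and 18.4 CPM in young mice, and passed edgeR's test with the term for mice 1 and 2 (2.15, adjusted p = 0.00252). In Klf1 cells it stood at 285, 36.5 and 6.12 CPM in aged mice and 43.4, 0 and 3.46 CPM in young mice. All LK cells held 9729, 1274 and 412 CPM in aged mice and 1166, 64.6 and 65.3 CPM in young mice. Aged mouse 2 was highest each time, so this was not particular to the members. The same held for Jchain and Igha. Eosinophil genes summed to 1982, 585 and 1372 CPM in aged mice and 2142, 908 and 172 CPM in young mice. Basophil or mast cell genes summed to 750 to 1363 CPM in aged mice and 595 to 1100 CPM in young mice, with Cpa3 at 313, 311 and 377 CPM in aged mice against 215, 256 and 283 CPM in young mice. Fcer1a stood at 37.9, 31.4 and 0 CPM in aged mice and at 4.82, 3.46 and 7.58 CPM in young mice (2.48 ± 0.49, edgeR unadjusted p = 0.000211, adjusted p = 1.00). The zero of Fcer1a was that of the shallow aged mouse 6, and without that mouse Fcer1a passed edgeR's test (2.67, adjusted p = 0.0296), as it did with a term for mice 1 and 2 (2.55, adjusted p = 0.0291). Fcer1a was concentrated in few cells, at 272 CPM in the 45 rich in basophil RNA and 179 CPM in the 53 rich in eosinophil RNA. It stood at 505 CPM in the 13 cells of both sets and at 4.25 CPM in the 867 of neither. The 45 numbered 14, 13 and 1 in aged mice and 10, 1 and 6 in young mice. The 53 numbered 10, 10 and 3 in aged mice and 20, 8 and 2 in young mice.

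Monocyte genes summed to 164 to 255 CPM in aged mice and 157 to 187 CPM in young mice, with Csf1r at 0 by the rule. Dendritic cell and macrophage genes summed to 63.6 to 101 CPM in aged mice and 39.0 to 72.8 CPM in young mice, with Siglech, Xcr1 and C1qa at 0. Erythroid genes summed to 66.5 to 210 CPM in aged mice and 85.4 to 175 CPM in young mice, with Klf1 at 0 by the rule. The 4 erythroid genes tested all had negative log2 differences (median -0.81, from -1.36 to -0.33), with edgeR calling 0 and 2 at an unadjusted p under 0.05. Megakaryocyte genes summed to 40.3 to 93.3 CPM in aged mice and 41.2 to 49.8 CPM in young mice. T or NK cell genes summed to at most 5.63 CPM in aged mice and 0.439 CPM in young mice. Mitochondrially encoded genes summed to 7213 to 19270 CPM in aged mice, highest in mouse 6, and to 8250 to 11765 CPM in young mice. The part of these other RNAs in the differences between ages was not tested beyond the fit without the cells rich in eosinophil or basophil RNA, which called 0 genes.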

How the data were processed

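Female C57BL/6 LK cells of 3 aged and 3 young mice were analysed, with 1 Illumina library per mouse. The authors deposited raw counts of UMIs for each gene and cell, made with Cell Ranger 3.0.2 and Seurat 3 (submitters' processing notes) on mm10, with cells of at least 1000 genes and at most 5% mitochondrial UMIs kept. The file holds 17757 genes. A cell was tied to its mouse by the number that ends its name, which is the mouse number of the labels. Age groups follow the labels, so p-values rest on separate mice. The long-read counts, per gene and run without cell barcodes, and the annotation were not used here.

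Members' UMIs were summed per mouse (257297 to 2482447) and compared in R 4.3.3 with edgeR 4.0.16 (filterByExpr, TMM, glmQLFit, glmQLFTest), with Benjamini-Hochberg adjustment over 7735 genes and a threshold of 0.05. Shares were compared by two-sided exact permutation over mice. Shares of cells with a UMI depend on depth, which is given beside them. Python 3.11.15, numpy 2.4.6, pandas 2.3.3, scipy 1.17.1 and matplotlib 3.10.9 were used. The scripts were tested on simulated data.

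Alternatives were DESeq2 1.42.0, no filter on low counts, a term for mice 1 and 2, cells thinned to 2000 UMIs, the deepest 5% of members left out (no doublet caller was run), Elane limits of 1 and 10, an S100a8 and S100a9 limit of 0, immunoglobulin, ribosomal and mitochondrial genes left out, and each mouse left out. Members rich in eosinophil or basophil RNA (20 UMIs) were left out as an alternative chosen after seeing the data. Members, 24 gene lists and comparison gates were chosen with earlier results of these data known.

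Genes named are those of the rule and its markers, up to 6 of the highest of each list, the study's ageing genes, the 15 highest genes, up to 8 genes in each direction between ages (at least 50 CPM, no overlap, smallest unadjusted p) and up to 12 in each direction against each gate (at least 100 CPM, no overlap). Gfi1, Cebpa, Irf8, Cebpb, Csf3r, Kit, Fos, Tap2, Psmb9, Ube2c, Hspa5, Ltb4r1, Gata1 and the genes of the tertiles and of the eosinophil and basophil cells were named after their values were seen. Promoter sequences and positions are from RefSeq on GRCm38.p6. Some genes of the lists are not reported here by name.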

Additional observations from a re-analysis of the deposited data

How the results depend on the processing

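edgeR called 0 genes between ages in the members and in all but 3 of the alternatives, DESeq2 among them. Without a filter on low counts it called 15 genes, with 12 higher and 3 lower in aged mice, among them Igkc (log2 difference 3.16), Ighm (2.28) and Jchain (2.43). With a term for mice 1 and 2 it called 5, all higher in aged mice (Fcer1a, Igha, Ighm, Igkc and Jchain). Igkc is limited by the rule, so its calls are not findings. Leaving out each mouse in turn gave 0 to 1 calls, the 1 being Fcer1a without aged mouse 6. The cause of these calls was not tested. The difference in share was -1.99 to 1.21 points with a mouse left out, 0.457 without an upper limit on S100a8 and S100a9 and 0.969 after thinning. Between -0.628 and -0.155 points were found under the other limits on Elane, S100a8 and S100a9 and without cells of 100 or more Igkc UMIs. The difference in log2 ratio of S100-high cells to members was -0.53 to 1.77 with a mouse left out, -0.13 with a boundary of 2 UMIs, 0.93 with a boundary of 20 and 1.53 after thinning. For 144 genes followed, 5 of 2244 values had the opposite sign of a difference that was larger than its SE, and none of these differences had passed the test. They were Malat1 (-0.0066, with -0.0066 to 0.71 over the mice left out) and Apoe (-0.20, with -0.20 to 0.65) without aged mouse 6, Irf8 (-0.074, with -0.074 to 0.57) and F13a1 (-0.065, with -0.065 to 0.65) without aged mouse 2, and Irf8 after thinning (-0.075). No paired analysis was possible because the ages share no mouse numbers. The 52 members of aged mouse 6, with 257297 UMIs, limit what can be seen of low genes.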

Other observations

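Cebpb, a C/EBP factor of emergency granulopoiesis, stood at 4.09, 77.3 and 58.3 CPM in the members of aged mice and at 68.4, 84.2 and 60.7 CPM in those of young mice (log2 difference -0.72, edgeR unadjusted p = 0.245, adjusted p = 1.00). The low value of aged mouse 2 recurred over all its LK cells, at 3.33, 58.4 and 38.3 CPM in aged mice and 57.7, 51.5 and 34 CPM in young mice. It was seen after the values were known.

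Hk2, hexokinase 2, stood at 35.3, 45.9 and 46.6 CPM in the members of aged mice and at 15.8, 36.9 and 26.0 CPM in those of young mice, with a log2 difference of 0.70 (edgeR unadjusted p = 0.0437, adjusted p = 1.00), while the 14 glycolysis genes had a median of -0.00, 7 of them positive and 7 negative. Itga2b, an integrin gene of megakaryocytes, stood at 34.8, 25 and 46.6 CPM in aged mice and at 21.5, 19.6 and 19.5 CPM in young mice, without overlap (0.58). Immediate early and heat shock genes had 12 positive differences of 13 tested (median 0.16), but 1 positive of 12 tested and a median of -1.13 without aged mouse 4.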
